A study of Mus musculus with 6 samples.

Results

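Odorant-binding proteins and nasal lipocalins are small secreted proteins of the nose, and 10 gene names of this kind were looked up in the deposited gene table: Obp1a, Obp1b, Obp2a, Obp2b, Lcn3, Lcn4, Lcn11, Lcn13, Mup4 and Mup5. A gene was found for 9 of the 10 names, among 41709 genes in all. Lcn13 is listed by RefSeq as an older name of Obp2a, so its reads stand under that symbol and the 9 genes described here cover the whole list. The members were chosen by their counts in these same libraries, which differed widely from library to library, so their levels, their spread and their difference between the diets are given as a description. RNA came from the rear of the nasal septum of mice, dissected with mucosa and bone together. Control mice ate a diet with sufficient zinc and zinc-deficient mice a diet lacking it, both between 4 and 8 weeks of age. There were 3 libraries per diet, numbered 4, 5 and 6. The labels name no strain, sex, allele or other treatment, and leave unsaid whether libraries are from separate animals.

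Lipocalins fold into a barrel with a pocket that holds small hydrophobic molecules. Odorant-binding proteins are lipocalins that glands of the nose release into the mucus, where they can carry odorants, and the major urinary proteins (Mup genes) are pheromone-binding lipocalins best known from mouse liver and urine, with some members made in nasal and other glands. Lcn3 and Lcn4 are also called vomeronasal secretory proteins, after the organ of pheromone sensing whose glands release them.

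The libraries held between 11731999 and 18727863 counts in genes, so that 3 counts corresponded to between 0.157 and 0.239 CPM. CPM is the count of a gene scaled to a common library size, here with TMM, a correction for differences in composition between libraries. Markers of olfactory tissue were abundant in every library: Omp, the olfactory marker protein of mature neurons, lay between 2364 and 5051 CPM, and Cyp2a5, an enzyme of sustentacular cells, between 3356 and 6448 CPM. Markers of vomeronasal neurons were near 0. Only 3 of 14 such genes had enough counts to be tested, their summed level lay between 4.98 and 12.1 CPM over the 6 libraries (mean log2 CPM of 0.58 to 1.12 in the control and 0.73 to 1.29 in the zinc-deficient libraries), and Vmn2r5, H2-M10.1 and H2-M1 had 0 counts. Zinc-deficient replicate 5 stood apart in the genes described here: of 18427 genes tested, 15 lay over 4 log2 units below their level in every other library there, and 5 of the 15 were members. The same count was 0, 0 and 3 genes in control replicates 4, 5 and 6, and 2 and 5 genes in zinc-deficient replicates 4 and 6, with no member among them.

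The 9 genes were divided into 2 sets by how they moved between libraries, after their values were seen. Obp1a, Obp1b, Lcn11, Mup4 and Mup5, called the Obp1a set below, were almost lost from zinc-deficient replicate 5, where their summed level was 12.9 CPM, against 1453 CPM in zinc-deficient replicate 4 and 6705 CPM in zinc-deficient replicate 6. In the control libraries the same sum was 11893, 1747 and 10914 CPM. Obp2a, Obp2b, Lcn3 and Lcn4, the Obp2a set, kept a summed level of 6090.4 CPM in zinc-deficient replicate 5, above zinc-deficient replicate 4 with 4496 CPM and control replicate 5 with 5384 CPM. Their sum was 13632 CPM in control replicate 4, 29919.9 CPM in control replicate 6 and 10388 CPM in zinc-deficient replicate 6. Of all counts, the 9 genes together took 2.51%, 0.764% and 3.73% on the control diet, against 0.561%, 0.653% and 1.74% on the zinc-deficient diet. The summed level of all 9 differed 6.86-fold between the highest and the lowest library, that of the Obp1a set 923-fold and that of the Obp2a set 6.65-fold. Without zinc-deficient replicate 5, the Obp1a set spanned 8.18-fold.

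**Figure D1:**
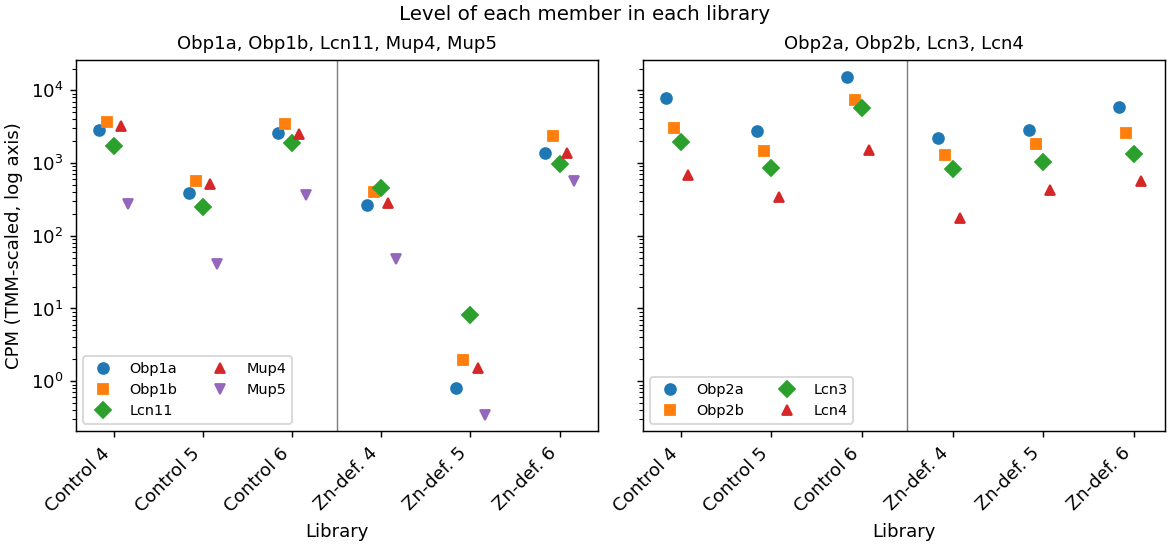
Level of each of the 9 genes in the 6 libraries, in CPM on a log axis, with one point per library. The 5 genes of the Obp1a set drop to between 0.347 and 8.26 CPM in zinc-deficient replicate 5, while the 4 genes of the Obp2a set stay between 421 and 2810.5 CPM there.

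Obp1a and Obp1b encode odorant-binding proteins and lie 95.4 kb apart on the X chromosome. Obp1a was at 2897, 384 and 2623 CPM in control replicates 4, 5 and 6, and at 262, 0.809 and 1392 CPM in the zinc-deficient ones. The lowest value rested on 14 counts, against 3560 to 40096 counts in the other 5 libraries. Obp1b was at 3695, 566 and 3496 CPM in the control and at 406, 1.97 and 2379 CPM in the zinc-deficient libraries. Both genes were high in control replicates 4 and 6 and zinc-deficient replicate 6, low in control replicate 5 and zinc-deficient replicate 4, and nearly lost from zinc-deficient replicate 5, so the diets overlapped. The highest library exceeded the lowest 3581-fold for Obp1a and 1881-fold for Obp1b. The pair did not move in a fixed proportion: the ratio of Obp1a to Obp1b counts was 0.784, 0.678 and 0.75 in the control and 0.647, 0.412 and 0.585 in the zinc-deficient libraries. All 3 zinc-deficient values lay below all 3 control values, and the value of 0.412 rested on 14 and 34 counts.

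The 120 bases before the annotated start of both genes are shown because Obp1a spanned the widest range of the members and Obp1b followed it. Sequences are from RefSeq on GRCm38.p6, 5′ to 3′ on the strand of the gene, with the letters TATAAA in capitals. Obp1a (chrX:78091375-78091494, minus strand) and Obp1b (chrX:78186688-78186807, plus strand) both hold these letters.
Obp1a: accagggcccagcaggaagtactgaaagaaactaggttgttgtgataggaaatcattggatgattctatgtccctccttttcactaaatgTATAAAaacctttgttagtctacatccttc
Obp1b: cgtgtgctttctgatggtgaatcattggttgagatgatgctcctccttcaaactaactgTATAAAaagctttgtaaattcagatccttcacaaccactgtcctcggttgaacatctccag
The letters begin at position −30 from the start in Obp1a and at −61 in Obp1b. Over the 250 bases before the start, the sequences of the pair were 60% identical, and their transcripts were 69.4% identical.

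The X chromosome interval holds 4 further genes, all unnamed gene models, 3 of which RefSeq gives odorant-binding protein synonyms, and they were examined after their values were seen. Gm14744 had more counts in each library than Obp1a, with 6978, 1015 and 8010.4 CPM in the control and 1449, 3.35 and 5291 CPM in the zinc-deficient libraries. Gene 5430402E10Rik was at 1772, 289 and 1844 CPM in the control and at 332, 1.5 and 1930.2 CPM in the zinc-deficient libraries. Gm5938 was detected at 3.58 to 22.8 CPM in 5 libraries and had 0 counts in zinc-deficient replicate 5. Gm14743 stood at 43.2, 7 and 41.5 CPM in the control and at 7.66, 0.116 and 113 CPM in the zinc-deficient libraries. All 4 moved with Obp1a between libraries, with Pearson r of at least 0.97 to the mean log2 CPM of the Obp1a set over the 6 libraries. Several of these genes are near copies: Gm14744 and 5430402E10Rik transcripts were 98.9% identical, Gm14743 and Obp1b 94.4%, and Gm5938 and Obp1a 84.4%. The sources used here do not say how reads were divided between such copies, so the level of each alone is uncertain.

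Mup4 and Mup5 encode major urinary proteins and lie 1789 kb apart on chromosome 4. Mup4 was at 3284, 511 and 2531 CPM in the control and at 282, 1.5 and 1387 CPM in the zinc-deficient libraries. Mup5 had 272, 40.8 and 361 CPM in the control and 47.4, 0.347 and 561 CPM in the zinc-deficient libraries. Both were low in control replicate 5 and zinc-deficient replicate 4 and at 26 and 6 counts in zinc-deficient replicate 5. Mup5 was the only member with its highest level in a zinc-deficient library. The ratio of Mup5 to Mup4 counts was 0.0827, 0.0799 and 0.143 in the control and 0.168, 0.231 and 0.405 in the zinc-deficient libraries, so all 3 zinc-deficient values lay above all 3 control values. The diets were separate in 2 of the 6 count ratios computed, this one and that of Obp1a to Obp1b, and both were singled out after their values were seen. No share over the ratios of other gene pairs was computed, so nothing is read from this count. For single genes, the CPM ranges of the diets did not overlap for 18.9% of all genes tested. The Mup4 and Mup5 transcripts were 92.2% identical, so how reads were split between them is uncertain. The other 20 Mup genes listed were almost silent: 14 had 0 counts in all 6 libraries and no count of another Mup gene exceeded 35 in a library. Mup6, the only other Mup gene tested, had 15, 0 and 35 counts in the control and 0, 0 and 30 in the zinc-deficient libraries. Mup genes are known for levels that depend on sex in liver. The Y-linked gene Ddx3y was at 24.3 to 39.2 CPM and Xist, the RNA of X inactivation, at 0.737 to 2.39 CPM across the 6 libraries.

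The sequence before Mup4 is shown as the chromosome 4 member of the Obp1a set, and no RefSeq entry was matched for Mup5. It lies at chr4:59960668-59960787 on the minus strand of GRCm38.p6, and TATAAA begins at position −27.
Mup4: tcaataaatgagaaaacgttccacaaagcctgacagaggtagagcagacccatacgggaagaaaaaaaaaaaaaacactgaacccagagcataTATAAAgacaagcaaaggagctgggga

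Lcn11, a lipocalin gene of chromosome 2, starts 8.92 kb after the end of Lcn3 but over all 6 libraries varied more closely with the X-linked and chromosome 4 genes. It was at 1745, 246 and 1902 CPM in the control and at 456, 8.26 and 985 CPM in the zinc-deficient libraries. It spanned 230.2-fold, less than the other 4 genes of its set, and its lowest library was zinc-deficient replicate 5, as for them. The ratio of Lcn11 to Obp1a counts was 0.602, 0.64 and 0.725 in the control and 1.74 and 0.708 in zinc-deficient replicates 4 and 6. In zinc-deficient replicate 5 Lcn11 had 143 counts and Obp1a 14, so Lcn11 was reduced less than Obp1a in the 2 libraries lowest in Obp1a. Its ratio to its neighbour Lcn3 was 0.896, 0.291 and 0.335 in the control and 0.541, 0.00799 and 0.748 in the zinc-deficient libraries. Adjacent genes of the cluster therefore differed in their library pattern, mainly in zinc-deficient replicate 5. Pearson r of log2 CPM between Lcn11 and Lcn3 was 0.54 over the 6 libraries and 0.83 without that library. Without it, r of Lcn11 was 0.80 (Lcn4) to 0.91 (Obp2a) in the Obp2a set and 0.86 (Mup5) to 0.93 (Obp1a) in its own set. These ranges overlapped, so the place of Lcn11 in the Obp1a set rested largely on zinc-deficient replicate 5. Gm13539, the next gene listed after Lcn11, had r of 0.89 to the mean log2 CPM of the Obp1a set and 0.67 to that of the Obp2a set. Lcn4, 887 kb further along, kept the pattern of Lcn3.

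**Figure D2:**
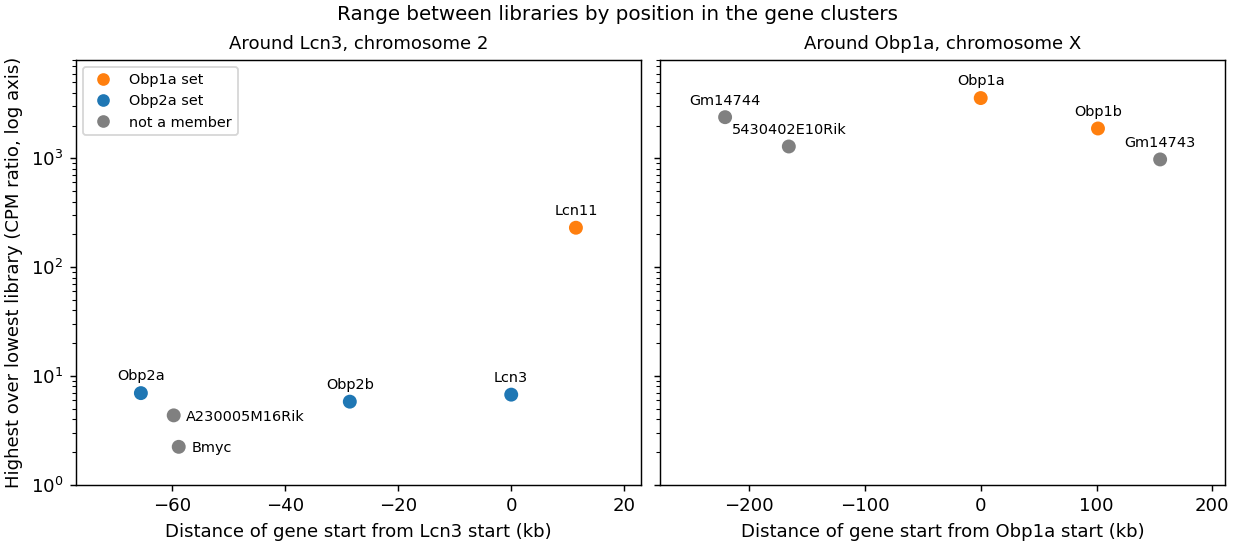
Fold between the highest and the lowest library (log axis) of the genes in the chromosome 2 lipocalin interval and the X chromosome interval, by distance of each gene's start from that of Lcn3 or Obp1a in kb (orange, Obp1a set; blue, Obp2a set; grey, other genes). Genes with 0 counts in a library (Gm13539 and Gm5938 among them), and Lcn4, are left out. Lcn11 stands at 230.2-fold beside Lcn3 at 6.73-fold, and Obp1a and Obp1b at 3581-fold and 1881-fold.

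Obp2a, an odorant-binding protein gene, had the highest level per transcript length of the members in every library, and was at 7985, 2754 and 15317 CPM in the control and at 2205, 2810.5 and 5904 CPM in the zinc-deficient libraries. Obp2b, its neighbour at 33.7 kb, was at 3008, 1446 and 7389.7 CPM in the control and at 1274, 1824 and 2598 CPM in the zinc-deficient libraries. Both were highest in control replicate 6 and lowest in zinc-deficient replicate 4, and zinc-deficient replicates 5 and 6 lay above control replicate 5, so the diets overlapped. Lcn3 was at 1947, 845 and 5675 CPM in the control and at 843, 1035 and 1317 CPM in the zinc-deficient libraries. Lcn4 was at 691, 338 and 1539 CPM in the control and at 175, 421 and 569 CPM in the zinc-deficient libraries. These 4 genes ranked the 6 libraries in the same order, from control replicate 6 through control replicate 4, zinc-deficient replicates 6 and 5 and control replicate 5 to zinc-deficient replicate 4. They spanned 5.8-fold (Obp2b) to 8.81-fold (Lcn4). The ratio of Obp2b to Obp2a counts stayed between 0.377 and 0.649.

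The sequences before these genes and before Lcn11 are shown to set Lcn11 beside its chromosome 2 neighbours. On GRCm38.p6 they lie at chr2:25699954-25700073 (Obp2a), chr2:25736887-25737006 (Obp2b), chr2:25765413-25765532 (Lcn3) and chr2:25776897-25777016 (Lcn11) on the plus strand, and at chr2:26671283-26671402 (Lcn4) on the minus strand.
Obp2a: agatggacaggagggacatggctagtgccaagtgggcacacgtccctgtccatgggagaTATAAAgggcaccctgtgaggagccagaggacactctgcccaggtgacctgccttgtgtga
Obp2b: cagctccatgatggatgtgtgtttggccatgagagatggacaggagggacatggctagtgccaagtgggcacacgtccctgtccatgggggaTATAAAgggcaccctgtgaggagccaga
Lcn3: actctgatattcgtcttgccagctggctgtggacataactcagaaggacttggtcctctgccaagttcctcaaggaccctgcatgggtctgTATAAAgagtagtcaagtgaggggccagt
Lcn4: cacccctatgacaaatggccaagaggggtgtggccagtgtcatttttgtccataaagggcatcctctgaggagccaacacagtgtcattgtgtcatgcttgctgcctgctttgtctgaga
Lcn11: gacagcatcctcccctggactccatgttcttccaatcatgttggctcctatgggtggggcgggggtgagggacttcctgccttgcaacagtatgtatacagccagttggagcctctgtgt
TATAAA begins at −61 in Obp2a, −28 in Obp2b and −29 in Lcn3, and these letters are not in the windows of Lcn4 and Lcn11. The sequences of Obp2a and Obp2b were 85.6% identical over the 250 bases before the start, the highest value among the pairs of the 8 genes compared. Lcn11 was 51.2% identical there to its neighbour Lcn3, and 47.6%, 50% and 47.6% to Obp1a, Obp1b and Mup4.

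Over the 250 bases before the start, on both strands, TATAAA was in 6 of the 8 sequences and in 12.4% of 32851 RefSeq promoters. The other motifs searched were AGAACA, a motif of steroid hormone receptors, found in Obp1a and Lcn11 and in 16.1% of promoters, CAGCTG, an E-box, found in Lcn3 and in 13% of promoters, and TGTTTAC, a forkhead motif, found in no member and in 3.17% of promoters. No motif searched contains another. No motif searched was in every gene of one set and in no gene of the other.

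Levels were compared between genes per transcript length, as the deposited RPKM (reads scaled to transcript length and library size). Mean RPKM over the 6 libraries was 4090 for Obp2a, 1972 for Obp2b, 1395 for Lcn3, 1094 for Obp1b, 822 for Obp1a, 713 for Mup4, 674 for Lcn11, 397 for Lcn4 and 117 for Mup5. The RPKM ranges of neighbours in this order overlapped for every pair. Obp2a ranged from 1409 to 9889.7 RPKM and Obp1a from 0.565 to 1876 RPKM.

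Variation within a diet exceeded that of most genes. The SD of log2 CPM about the diet means was 4.07 for Obp1a, 3.89 for Obp1b, 3.85 for Mup5, 3.74 for Mup4 and 2.86 for Lcn11. It was 1.03 for Obp2a, 1 for Lcn3, 0.99 for Lcn4 and 0.91 for Obp2b, against a median of 0.26 over all genes tested.

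Covariation was described by Pearson r of log2 CPM over the 6 libraries, which share their depth and dissection between genes. Within the Obp1a set, r lay between 0.97 and 1.0 over 10 pairs, and within the Obp2a set between 0.92 and 0.99 over 6 pairs. Between the sets it lay between 0.40 and 0.65 over 20 pairs. The sets were drawn from these same values, so a higher r within than between them is no separate evidence for the division. By rank the sets were less separate: Spearman's rho was 0.71 to 1.0 within the Obp1a set, 1.0 for all pairs of the Obp2a set and 0.60 to 0.77 between the sets. With the diet means removed, the medians were 0.99 and 0.94 within the sets and 0.30 between them. Without zinc-deficient replicate 5 the median was 0.92 within the Obp1a set, 0.97 within the Obp2a set and 0.85 between the sets, so the separation of the sets rested largely on that library.

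**Figure D3:**
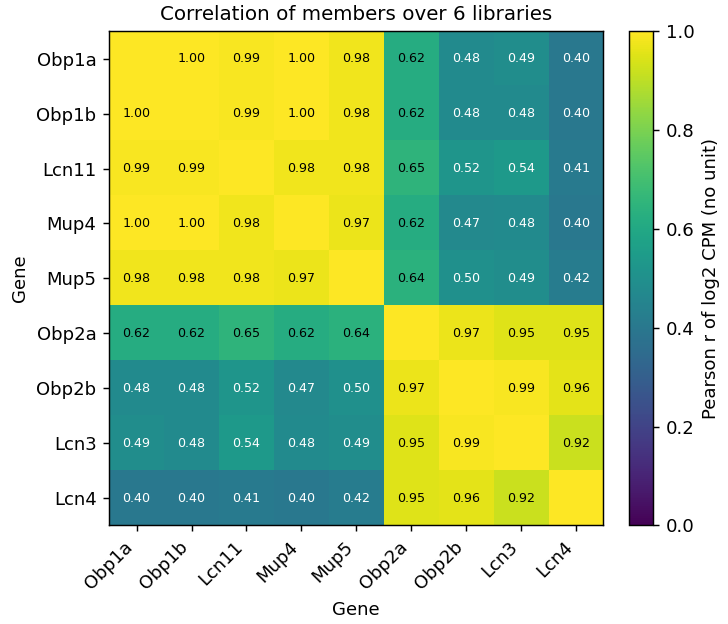
Pearson r of log2 CPM over the 6 libraries for each pair of the 9 genes, with the genes ordered by set and the colour scale showing r. Pairs within each set reach 0.92 or more, and pairs between the sets lie between 0.40 and 0.65. The sets were drawn after these values were seen.

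In the comparison of the diets, all 9 genes had lower fitted levels in the zinc-deficient libraries, but none passed the test. In edgeR's quasi-likelihood fit across all genes, 22 of 18427 genes (0.119%) had an adjusted p under 0.05, and 0 of the 9 members. Of the 22 genes, 6 (0.0326%) were lower in the zinc-deficient libraries. None of the 9 had an unadjusted p under 0.05 in edgeR, as 12.9% of all genes tested did, and DESeq2 called 0 of the 9, against 2.05% of all genes given an adjusted p. The members' adjusted p lay between 0.5 and 0.986 in edgeR. All 9 passed the filter on low counts, and nothing is read from their count, since they were chosen with these values known. The log2 fold change was −1.92 for Mup4 (SE 2.08), −1.83 for Obp1a (SE 2.18), −1.48 for Obp1b (SE 2.14), −1.42 for Lcn11 (SE 1.72) and −0.15 for Mup5 (SE 2.08). In the Obp2a set it was −1.41 for Lcn3 (SE 0.74), −1.25 for Obp2a (SE 0.72), −1.14 for Lcn4 (SE 0.74) and −1.06 for Obp2b (SE 0.63). The median over members was −1.41, beside −0.0021 over all genes tested. The CPM ranges of the diets overlapped for all 9, while they did not overlap for 18.9% of all genes tested. Single libraries moved these values: without zinc-deficient replicate 5 the log2 fold change was −1.25 for Obp1a, −0.89 for Obp1b, −0.85 for Lcn11 and −1.34 for Mup4. Without zinc-deficient replicate 6 it was −3.90 for Obp1a, −3.67 for Obp1b, −2.48 for Lcn11, −3.90 for Mup4 and −3.25 for Mup5. Without control replicate 6 it was −0.56 for Obp2a, −0.23 for Obp2b, −0.39 for Lcn3 and −0.40 for Lcn4. For Mup5 it was positive, between 0.02 and 0.44, when control replicate 4 or 6 or zinc-deficient replicate 4 or 5 was left out.

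**Figure D4:**
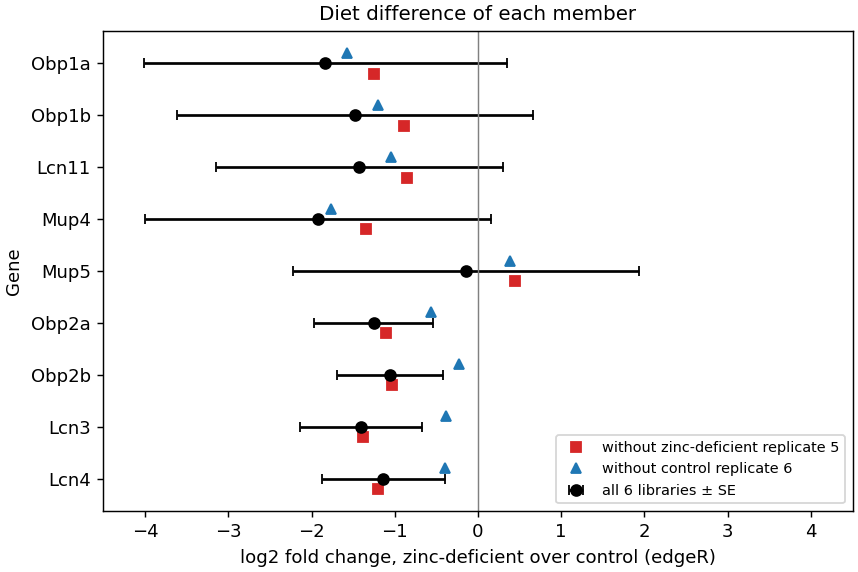
Log2 fold change of zinc-deficient over control for each of the 9 genes from the fit across all genes (black circles, with bars of ± 1 SE), and the same without zinc-deficient replicate 5 (red squares) or control replicate 6 (blue triangles). The black circles lie between −1.92 for Mup4 and −0.15 for Mup5, with wider bars in the Obp1a set, and the triangles of the Obp2a set lie nearer to 0.

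The mean of other secreted products of nasal glands (among them mucins, BPI-fold proteins and antimicrobial proteins) varied between libraries with the Obp2a set, while single genes differed. Of 35 listed genes, 30 were tested, 0 passed in either direction, 19 had a negative log2 fold change, and the median was −1.05. By unadjusted p under 0.05, edgeR gave 8 of the 30, against 12.9% of all genes tested, and DESeq2 called 2, against 2.05% of all genes, both lower in the zinc-deficient libraries (Muc19, a mucin, and Lyz1, a lysozyme). The list's mean log2 CPM was 6.39, 5.25 and 6.81 in the control and 4.67, 5.42 and 5.75 in the zinc-deficient libraries, in the same library order as Obp2a. Its r was 0.97 to the mean of the Obp2a set and 0.49 to that of the Obp1a set. Every r to the Obp1a set mean, for this list and those below, depends heavily on zinc-deficient replicate 5. That mean was 0.74 there, against 7.85 to 10.78 in the other libraries. Gene by gene, r to the Obp2a set ranged from −0.92 to 0.99 with a median of 0.68, and it was higher than r to the Obp1a set for 24 of the 30 genes. Dmbt1, a mucus glycoprotein, was at 6258, 2122 and 13811 CPM in the control and at 1419, 2618 and 3431 CPM in the zinc-deficient libraries. Muc5b, a gel-forming mucin, differed little between libraries, from 2169 to 3491 CPM. The summed level of the list was 14219 to 34116 CPM in the control and 16881 to 20644 CPM in the zinc-deficient libraries, and Scgb1a1 had 0 counts. The part of these products' levels in those of the members was not tested. In whole tissue, fewer gland cells and less of each RNA per gland cell cannot be told apart.

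Regulators and structural genes of gland cells varied less as a mean, with a mean log2 CPM of 5.59 to 6.48. All 18 were tested, 0 passed, and the median log2 fold change was −0.33. Their mean followed the Obp2a set with r of 0.95 and the Obp1a set with r of 0.68. The unadjusted p in edgeR was under 0.05 for 6 of them (12.9% of all genes). DESeq2 called 2 lower (Xbp1, a factor of the secretory pathway, and Elf3, an epithelial factor), against 2.05% of all genes given an adjusted p. Slc12a2, an ion cotransporter of secretory cells, was at 509.6 to 661 CPM, and Krt18, a keratin of simple epithelia, at 177 to 312 CPM. Some less abundant regulators of the list, named after their values were seen, ranged more widely. Bhlha15 was at 14.1 to 69.9 CPM, Ehf at 21.4 to 93.7 CPM and Elf3 at 21.2 to 80.1 CPM. The ranges of the rest are not given here. The list of other lipocalins held 44 names. RefSeq gives Lcn14, Obp5 and Obp7 as other names of the members Obp2b, Obp1a and Obp1b, and Obp6 as one of Gm5938. Of the 44 names, 36 were in the table. Of these, 6 were tested, 0 passed and the median log2 fold change of the 6 was 0.25. Their mean log2 CPM followed the Obp1a set with r of 0.36 and the Obp2a set with r of 0.69. In edgeR 2 of the 6 had an unadjusted p under 0.05, against 12.9% of all genes, and DESeq2 called 0. Apod, a lipocalin that carries lipids, was at 198 to 333 CPM, and Ptgds, a prostaglandin synthase of the lipocalin family, had a log2 fold change of 0.71 (SE 0.22, adjusted p = 0.254 in edgeR). Of this list 18 genes had 0 counts, 14 of them Mup genes and the others Lcn6, Lcn8, Lcn9 and Lcn10.

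**Figure D5:**
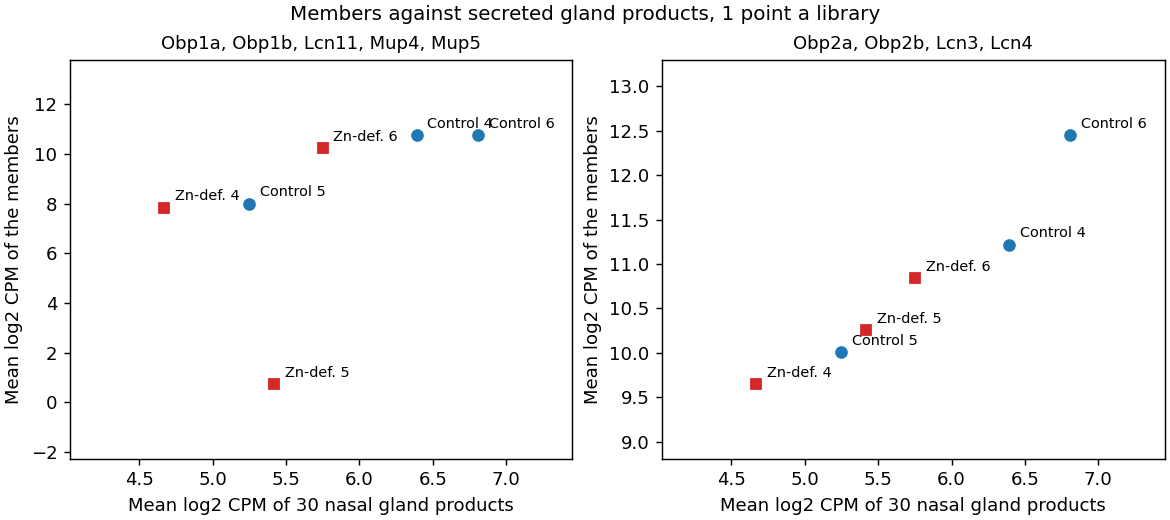
Mean log2 CPM of the Obp1a set (left) and of the Obp2a set (right) on the vertical axes, against the mean log2 CPM of the 30 tested nasal gland products on the horizontal axes, with one labelled point per library (blue circles, control; red squares, zinc-deficient). The points lie close to a line for the Obp2a set (r 0.97), while for the Obp1a set (r 0.49) zinc-deficient replicate 5 stands far below the other libraries.

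Markers of other tissue components were compared in the same libraries. Sustentacular cell genes (12 tested, 0 passed, median log2 fold change 0.10) summed to 8139 to 12568 CPM in the control and 11051 to 12298 CPM in the zinc-deficient libraries. Mature olfactory neuron genes (13 tested, 0 passed, median 0.34) summed to 6501 to 7887 CPM in the control and 8721 to 10406 CPM in the zinc-deficient libraries. Genes of ciliated respiratory cells (12 tested, 0 passed, median −0.36) summed to 1064 to 1398 and 832 to 1084 CPM. Osteoblast genes (12 tested, 0 passed, median −0.79) summed to 11994 to 20335 and 6599 to 13758 CPM. Of 21 marrow and blood precursor genes 20 were tested and 1 was higher in the zinc-deficient libraries, Igll1, a surrogate light chain of B cell precursors. Igll1 was low throughout, at 0.311, 0 and 0.131 CPM in the control and at 3.54, 3 and 2.93 CPM in the zinc-deficient libraries. Its control values were near or under the floor of 3 counts. The median log2 fold change of the 20 genes was 1.62, and their sum was 509 to 1914 CPM in the control and 1671 to 4293 CPM in the zinc-deficient libraries. In edgeR the unadjusted p was under 0.05 for 2 sustentacular, 6 neuron, 5 ciliated, 9 osteoblast and 8 marrow genes, beside 12.9% of all genes tested. DESeq2 called 0 sustentacular and 0 neuron genes, and 2 ciliated cell genes lower (Dnah5 and Dnah9, dynein heavy chains). It called 4 osteoblast genes lower (Bglap, Bglap2, Dmp1 and Phex) and 3 marrow genes higher (Klf1, Prtn3 and Igll1). Over all genes, DESeq2 called 2.05% of those given an adjusted p, and 0.119% of those tested passed in edgeR. None of the genes in these 5 lists had 0 counts in all libraries. Of the 3 vomeronasal genes tested, edgeR gave 0 at an unadjusted p under 0.05 and DESeq2 called 0, with a median log2 fold change of 0.17. Of 5 sex-linked genes, 0 passed in edgeR or DESeq2, 4 had an unadjusted p under 0.05 in edgeR (12.9% of all genes), and the median was −0.36. Over the 6 libraries, r of the list mean to the Obp1a and Obp2a sets was −0.01 and 0.66 for sustentacular cells, −0.50 and −0.74 for neurons and 0.46 and 0.43 for ciliated cells. It was 0.54 and 0.53 for osteoblasts, −0.40 and −0.68 for marrow, and −0.07 and 0.06 for sex-linked genes. The part of these levels in those of the members was not tested.

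The genes most like the members were named by Pearson r of log2 CPM over the 6 libraries to the mean of the standardised levels of all 9. They were Vipr1 (r 0.997), a receptor for vasoactive intestinal peptide, Prom2 (0.993), Barx2 (0.985), a homeobox factor, Chrm1 (0.984), a muscarinic acetylcholine receptor, Enpp3, Phlda1, Gjb1, Tgm5, Cblc and Dpt (0.972). For single members, the most like gene was BC051076 for Obp1a, Obp1b and Mup4 (0.999), Scgb2b27, a secretoglobin, for Lcn11 (0.994), and Crisp1, a cysteine-rich secretory protein, for Mup5 (0.986). For the Obp2a set it was Aass for Obp2a (0.995), Upk1b for Obp2b (0.992), Deptor for Lcn3 (0.981) and Fxyd2 for Lcn4 (0.992). The most like fellow member was Obp1b for Obp1a, Obp2b for Obp2a, Lcn3 and Lcn4, and Lcn3 for Obp2b. The number of eligible genes was 3451, and the 6 libraries share depth and dissection.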

How the data were processed

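Total RNA (500 ng per library) of the posterior nasal septum was depleted of ribosomal RNA and made into libraries with NEBNext kits, per the labels. The authors deposited whole-number counts per gene and RPKM values for 6 libraries, per the file headers. Not given in the sources used here are the aligner, counter, genome build, annotation and strand setting. Another 12 columns of per-sample values were not used.

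The counts were fitted in R 4.3.3 with the quasi-likelihood test of edgeR 4.0.16 (TMM, filterByExpr, robust, diet as the only term, two-sided, Benjamini-Hochberg over 18427 genes at 0.05). The procedure was tested on simulated data with a capped spread between libraries. That test does not cover genes as variable as the members. SE is the size of the log2 fold change divided by the root of F. Log2 CPM used a prior count of 2. No pair of libraries within a diet agreed within sampling noise. The labels do not say that libraries came from separate mice, so p-values reflect only how these libraries differ, which may be technical. Floors in counts cover counting error only.

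The members and the 10 other gene lists were chosen with earlier results of these data known. Named genes were all members, list genes past the test or else the 2 most abundant, and the 10 genes most like the members. Genes eligible as most like had a mean of at least 1 CPM and a span of at least 1 log2 unit. Names of the Gm and Rik forms, pseudogenes, immunoglobulin segments and odorant or vomeronasal receptors were left out. The genes near Obp1a on the X chromosome, Gm13539, Mup6, Ddx3y, Xist and the Scgb2b genes other than Scgb2b27 were named after their values were seen. The same holds for the genes most like each set (Klk14, Car6 and Chil1 among them), Bhlha15, Ehf and the list genes called only by DESeq2. The division into 2 sets was also made after the values were seen. Transcript identity used GENCODE M21 and sequences before the start RefSeq, both on GRCm38.p6, aligned with Biopython 1.88. Distances between genes are from the deposited coordinates. Alternatives were a replicate block, each library left out in turn, other scaling, other filters, DESeq2 1.42.0 and limma 3.58.1 on log2(RPKM + 1).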

Additional observations from a re-analysis of the deposited data

How the results depend on the processing

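With 3 libraries per diet and a within-diet SD of 0.91 to 4.07 log2 units, the fit had little precision for the members. Of 108 member values under 12 alternatives, 104 kept the direction, 0 passed the test, and 4 reversed, all for Mup5: 0.02 without control replicate 4, 0.38 without control replicate 6, 0.32 without zinc-deficient replicate 4 and 0.44 without zinc-deficient replicate 5, against −3.25 without zinc-deficient replicate 6. The count of members past the test was 0 under all 12. The median log2 fold change of the members (−1.41) was −1.95 with limma on log2(RPKM + 1) and −2.48 (zinc-deficient replicate 6) to −0.56 (control replicate 6) when a library was left out. The 22 genes past the test over all genes became 172 without a filter, 356 with DESeq2, 10 with limma and 9 (control replicate 5 or 6 or zinc-deficient replicate 5) to 50 (control replicate 4) when a library was left out. With the replicate number as a block the median was −2.17 and 153 genes passed, none of them a member. Deviations from the diet means correlated at −0.05, 0.15 and 0.07 between same-numbered libraries. The labels do not say what a shared number means, and whether such libraries share a batch was not tested. The 6.86-fold range of the summed level was 4.29 (control replicate 6) to 6.86 when a library was left out. The median r of all pairs (0.63) was 0.59 to 0.90 (zinc-deficient replicate 5) when a library was left out, 0.99 within the Obp1a set and 0.96 within the Obp2a set. The cause of these changes was not tested.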

Other observations

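Genes most like each set were named after the sets were seen, and secreted products among them were picked out by name, so no theme is read from them. Over the 6 libraries and among the eligible genes, the mean log2 CPM of the Obp1a set was followed most closely by BC051076 (r 0.997), Klk14 (0.993), a kallikrein-related protease, and Scgb2b27 (0.980). Crisp1 (0.971) and Car6 (0.965), a secreted carbonic anhydrase, were among the first 10. The rest of the first 10 were Lancl3 (0.979), Rasal1 (0.970), Irx2 (0.966), Enpp3 (0.963) and Phf11d (0.958). Klk14 was at 113, 23.1 and 152 CPM in the control and at 34.5, 0 and 79.4 CPM in the zinc-deficient libraries. Crisp1 was at 44.4, 2.86 and 42.9 CPM in the control and at 0 and 60.3 CPM in zinc-deficient replicates 5 and 6. Both had 0 counts in zinc-deficient replicate 5, where the Obp1a set was lowest. The Obp2a set was followed most closely by Dmbt1 (0.991), Upk1b (0.983) and Chil1 (0.982), a chitinase-like secreted protein. The rest of its first 10 were Car8, Fxyd2, Tspan1, B4galnt2, Anxa1, Serpina3n and Lratd1.

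Scgb2b7, Scgb2b15 and Scgb2b17, further secretoglobins, had r of 0.93 to 0.95 to the mean of the Obp2a set and 0.41 to 0.63 to that of the Obp1a set. Scgb2b7 was at 9.33, 0.159 and 12.6 CPM in the control and at 0, 0.116 and 0.838 CPM in the zinc-deficient libraries. Scgb2b15 was at 12.7, 0 and 27.5 CPM in the control and at 0, 0.347 and 0.786 CPM in the zinc-deficient libraries. Scgb2b17 was at 14.5, 0 and 38.3 CPM in the control and at 0, 0.636 and 0.524 CPM in the zinc-deficient libraries. These 3 genes were high in control replicates 4 and 6 and near or under the floor of 3 counts in control replicate 5 and zinc-deficient replicate 4. They were under 1 CPM in zinc-deficient replicates 5 and 6, where Obp1a stood at 0.809 and 1392 CPM and Obp2a at 2810.5 and 5904 CPM. Outside control replicates 4 and 6 they had at most 16 counts in a library, so their r to both sets rests mainly on those libraries.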
